A study of Mus musculus with 16 samples.

Results

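The genes described are 8 mouse genes whose products leukocytes meet on the surface of another cell: *Icam1*, *Vcam1* and *Alcam*, which are adhesion ligands, *Cd274* and *Pdcd1lg2*, which are checkpoint ligands, *Icosl*, a costimulatory ligand, *Cd40*, a costimulatory receptor, and *Cd47*. They were chosen by symbol out of 55414 gene identifiers, and all 8 were in the count files. RNA was measured by sequencing in 16 libraries of cells enriched in chondrocytes from the epiphyses of newborn mice, with 4 libraries in each of 4 groups. Control cells came from wild-type mice and mutant cells from littermates heterozygous for *Notch2* tm1.1Ecan. This allele carries a stop codon that removes the PEST domain of NOTCH2, so that the protein is degraded less readily and Notch signaling is raised. Cells of each genotype received either vehicle (PBS) or 50 ng/ml of TNFα, and RNA was taken after 6 h. Male and female newborns were pooled, and the allele was carried in all tissues of the mouse, not only in chondrocytes and not only during culture. The labels mention removal of serum for the TNFα groups only, whereas the study's own legend gives it for all groups; if the labels hold, TNFα and serum removal cannot be told apart.

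ICAM1 and VCAM1 are bound by integrins of leukocytes, and ALCAM is bound by CD6 on T cells. CD274 and PDCD1LG2 engage the inhibitory T cell receptor PDCD1, ICOSL engages the T cell costimulator ICOS, and CD40, a receptor of the TNF receptor family, is engaged by CD40LG on activated T cells. CD47 binds SIRPA on phagocytes and restrains engulfment, and it also binds thrombospondin.

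Total counts on genes ranged from 13471143 to 18677402 in the control vehicle libraries, from 12552727 to 19220459 in the control TNFα libraries, from 14781440 to 44237300 in the mutant vehicle libraries and from 3439726 to 17155897 in the mutant TNFα libraries. The lowest total belonged to replicate 4 of the mutant TNFα group. Entries that name no gene held 8.81% to 12.1% of a library's counts. Levels are CPM on library totals scaled by TMM, and n = 4 libraries per group unless another number is given. A count of 3, taken as the floor of detection, equals 0.0678 to 0.872 CPM on library totals without TMM scaling, depending on the library. A gene is called where its adjusted p (edgeR quasi-likelihood test, Benjamini-Hochberg over all genes tested) is under 0.05. Because RNA came from bulk cultures, fewer cells of a type that makes a transcript and less of that transcript per cell cannot be told apart.

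The 16 chondrocyte marker genes summed to between 20431 and 55771 CPM in every library, with *Col2a1* the most abundant. The 10 fibroblast and perichondrial markers summed to 20544 to 29164 CPM, led by *Col1a1*. Macrophage markers summed to 86.1 to 251 CPM, led by *Lyz2*, and endothelial markers to 28.7 to 43.2 CPM, led by *Erg* or, in mutant TNFα libraries, *Tek*. Of 6 T cell markers, *Cd3e*, *Cd3g* and *Cd8a* had 0 counts in all 16 libraries and the sum stood at 0.305 to 3.70 CPM, most of it *Lck*. Of 9 dendritic and B cell markers, 7 had at most 3 counts in every library, *Xcr1*, *Clec9a* and *Ms4a1* had 0, and *Zbtb46* made up most of the sum of 5.91 to 18.4 CPM.

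Replicate 4 of the control vehicle group stood apart from the other libraries of its group, and replicate 4 of the control TNFα group did so in the opposite direction. The first principal component, which held 74.5% of the variance, placed the other 7 vehicle libraries between -49.2 and -46.7 and the other 7 TNFα libraries between 44.0 and 47.8. Control vehicle replicate 4 sat at -17.4 and control TNFα replicate 4 at 33.3. On the second component, with 7.62% of the variance, mutant TNFα replicate 4, the library with the lowest total, sat at 31.6, while the other mutant TNFα libraries lay between 9.835 and 11.04. It enters the TNFα comparison in mutant cells and the genotype comparison with TNFα, and no member call was lost without it. Across 463 genes with a large TNFα difference in control replicates 1 to 3, of which 386 were higher and 77 lower with TNFα, the vehicle library lay a median 15.8% of the way from the vehicle mean to the TNFα mean (quartiles 13.2% to 19.7%). The TNFα library lay at 80.4% of that way (quartiles 75.4% to 85.7%). For *Icam1* these positions were 15.0% and 85.4%, for *Vcam1* 16.3% and 83.3%, and for *Icosl* 16.4% and 92.0%. The positions for *Cd47* were 20.6% and 94.9%, for *Cd274* 10.4% and 86.3%, and for *Cd40*, at few counts, 8.59% and 79.2%. *Alcam*, not called with TNFα, has means of 50.6 and 46.7 CPM in replicates 1 to 3, which leave little distance to place it on, and stood at -38.6% and 31.2%. Values given without these libraries come from fits that leave out both, and so set 3 control libraries against 3 control or 4 mutant libraries. Whether material of the opposite treatment entered these libraries was not tested. Every fold change from all libraries that uses control cells carries that doubt. This holds for TNFα in control cells, for both genotype comparisons and for the interaction.

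The comparison of TNFα with vehicle asks how inflammatory signaling changes the chondrocyte transcriptome within a genotype. Of the 8 genes, 6 were higher with TNFα in control cells and the same 6 were higher in mutant cells. *Alcam* was called in neither genotype, and *Pdcd1lg2* had no counts. All 6 genes separated the TNFα libraries from the vehicle libraries without overlap in both genotypes, as *Alcam*, not called, did in control cells. The share of all genes that separate these groups is not given.

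In control cells 7 of the genes could be tested, 6 were called higher and 0 lower, where 23.3% of all 19338 genes tested were called higher and 20.9% lower. In mutant cells the same 6 of 7 were called higher, beside 22.6% of 19633 genes called higher and 21.9% called lower. Without replicate 4 of both control groups the count in control cells was again 6 of 7, beside 24.6% of 18523 genes called higher and 22.8% lower. The median log2 fold change of the 7 genes was 3.83 in control cells and 4.34 in mutant cells, and that of all genes was 0.04 and 0.03. The median in control cells was 4.64 without both replicate 4 libraries, with *Cd40* at its pooled ratio as well as at its fitted value. DESeq2 gave no adjusted p for *Icam1*, *Vcam1* and *Icosl* in control cells, since its filter for extreme counts left them out, and called the remaining 3. The 9 genes kept as a check of TNFα treatment were called higher in both genotypes, and their summed level was 133 to 144 CPM in control vehicle replicates 1 to 3, 528 CPM in replicate 4 and 2399 to 3061 CPM in control TNFα libraries. Over the same comparison 13 of 16 chondrocyte markers were called lower in both genotypes. Of the macrophage markers 5 were called higher and 1 lower in control cells and 10 higher and 1 lower in mutant cells. Of 10 fibroblast and perichondrial markers 6 were called higher and 2 lower in control cells, and 5 higher and 1 lower in mutant cells. Of 7 smooth muscle and pericyte markers 2 were called higher and 4 lower in both genotypes. *Zbtb46* had means of 6.74 CPM with vehicle and 17.2 CPM with TNFα in control cells, and 6.29 and 16.5 CPM in mutant cells. Whether these marker changes bear on the ligand genes was not tested.

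The comparison of mutant with control cells asks what the *Notch2* gain of function changes with and without TNFα. With vehicle, *Alcam* alone was called lower in mutant cells. *Icam1* also lay lower in every mutant library, at a log2 fold change of -2.30 that was not called. When both replicate 4 control libraries were left out, *Icam1* was called lower as well and *Vcam1* was called higher. With TNFα, *Icam1*, *Alcam* and *Cd274* were called lower and *Vcam1* higher in mutant cells. Every one of these 4 separated the groups without overlap, as did *Cd47*, which was not called. For this comparison too, the share of all genes that separate the groups is not given. The vehicle groups also serve as the reference of the TNFα comparisons, so that the comparisons share libraries and are not independent.

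With vehicle, 1 of 7 genes tested was called, lower, beside 4.35% of 19432 genes called lower and 6.19% called higher. In the fit without both replicate 4 control libraries 3 of 7 were called, 1 higher and 2 lower, where 5.78% of 19089 genes were called higher and 4.59% lower. With TNFα, 4 of 7 were called, 1 higher and 3 lower, beside 5.63% of 19227 genes called higher and 4.31% lower. Without the control replicate 4 library the count was again 4 of 7, 1 higher and 3 lower, beside 5.86% of 18803 genes higher and 5.18% lower. The fit to all 16 libraries called 1 of the 7 with TNFα. It did not call *Icam1* (adjusted p 0.763), *Vcam1* (adjusted p 0.757) or *Cd274* (adjusted p 0.269). The median log2 fold change of the 7 genes was -0.59 with vehicle, -0.05 with vehicle once both replicate 4 libraries were left out, -0.11 with TNFα and -0.18 with TNFα without control replicate 4.

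The interaction asks whether the TNFα difference itself depends on genotype. No member was called by edgeR in the fit to 16 libraries (0 of 7), where 0.474% of 21321 genes were called. Leaving out both replicate 4 control libraries, 0 of 7 were called again, beside 0.63% of 20955 genes. At an unadjusted p under 0.05 there was 1 member, *Icosl*, in the full set and 0 without these libraries. DESeq2, which gave no adjusted p for 4 of the 7 (*Icam1*, *Vcam1*, *Icosl* and *Cd40*), called 0 of the others, with 0 at an unadjusted p under 0.05.

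Macrophage markers summed to 86.1 to 94.5 CPM in control vehicle libraries and 165 to 194 CPM in mutant vehicle libraries, with 12 of 16 called higher in mutant cells. In TNFα libraries the same sum stood at 102 to 119 CPM in control and 216 to 251 CPM in mutant cells, with 14 of 16 called higher. Chondrocyte markers summed to 51960 to 55771 CPM in control and 32409 to 37647 CPM in mutant vehicle libraries, and to 37686 to 44667 and 20431 to 23307 CPM in TNFα libraries. All 16 were called lower in mutant cells with either treatment, and 15 with vehicle when the replicate 4 libraries were left out. Smooth muscle and pericyte markers, led by *Acta2*, summed to 1703 to 1913 CPM in control and 2997 to 3397 CPM in mutant vehicle libraries, and to 1034 to 1250 and 1757 to 1998 CPM with TNFα. Fibroblast and perichondrial markers summed to 20544 to 22517 CPM in control and 24309 to 26119 CPM in mutant vehicle libraries, with 5 of 10 called higher and 2 lower. With TNFα the sums were 20589 to 22461 and 24624 to 29164 CPM, with 7 higher and 1 lower. The endothelial sum was 32.1 to 36.8 CPM in control and 37.6 to 43.2 CPM in mutant vehicle libraries, but its genes were split. Of 9 endothelial markers 4 were called higher and 1 lower with vehicle, where *Tek* was higher, at 10.3 to 14.1 CPM in mutant against 5.08 to 6.19 CPM in control libraries, and *Erg*, the most abundant, was lower, at 14.9 to 19.5 against 21.8 to 24.5 CPM. In TNFα libraries the sum was 28.7 to 31.4 CPM in control and 32.6 to 41.3 CPM in mutant cells, with 3 called higher and 1 lower. Whether these differences in marker sums bear on any genotype difference of the ligand genes was not tested.

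**Figure D1:**
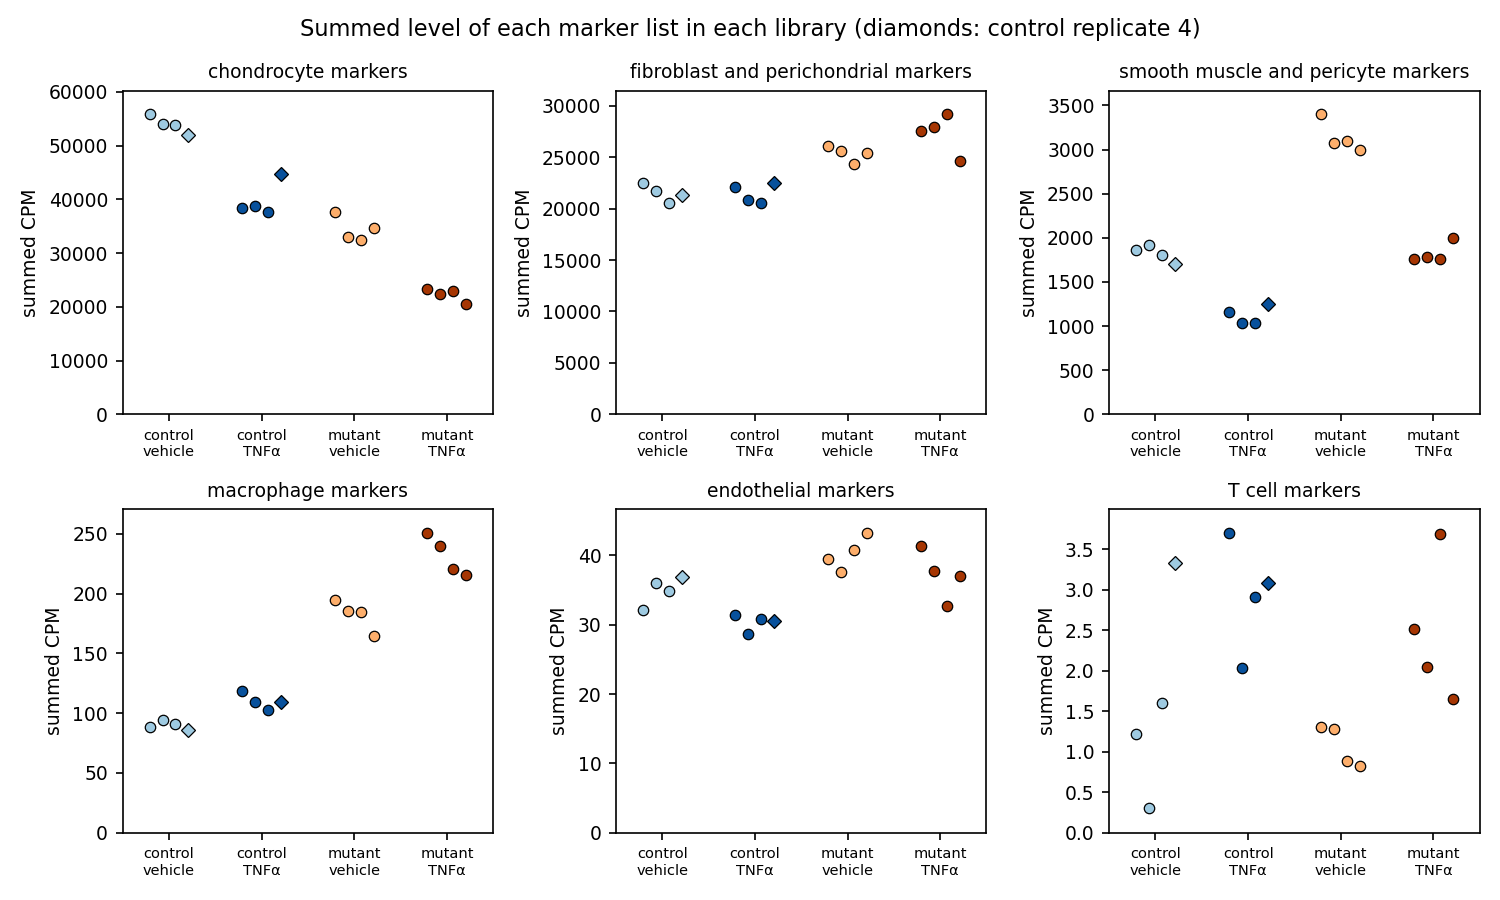
Summed CPM (linear axis) of marker genes of each cell type drawn in the 16 libraries, with 1 point per library and diamonds for control replicate 4. In vehicle libraries the macrophage sum is 165 to 194 CPM in mutant and 86.1 to 94.5 CPM in control cells, and the chondrocyte sum is 32409 to 37647 and 51960 to 55771 CPM.

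The adhesion ligands included the gene with the largest level under TNFα. *Icam1* (ENSMUSG00000037405, chromosome 9, 20926672 to 20940113, plus strand of GRCm39) encodes a ligand of the leukocyte integrins that contain ITGB2. Control vehicle replicates 1 to 4 held 34.4, 39.4, 40.4 and 439 CPM, and the mean was 138 ± 200 (SD). Control TNFα replicates held 2589, 2689, 2828 and 2312 CPM, with a mean of 2604 ± 218. All vehicle libraries lay below all TNFα libraries, and replicate 4 was the highest of its vehicle group and the lowest of its TNFα group. The log2 fold change was 4.23 (95% CI 1.57 to 6.88, adjusted p 0.0205), an 18.7-fold rise. Without replicate 4 of both groups (n = 3 and 3) it was 6.16 (6.04 to 6.28, adjusted p 1.16e-24), which is 71.4-fold, between means of 38.1 ± 3.24 and 2702 ± 120 CPM.

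In mutant cells *Icam1* stood at 29.8, 26.9, 27.2 and 28.4 CPM with vehicle. The TNFα replicates held 1930, 1855, 1812 and 1929 CPM. The means were 28.1 ± 1.31 and 1882 ± 58.2 CPM, no replicate stood apart, and the log2 fold change was 6.07 (95% CI 5.92 to 6.21, adjusted p 2.87e-29), or 67.1-fold. Every mutant library lay below every control library of the same treatment. With vehicle the log2 fold change of mutant against control was -2.30 (-4.80 to 0.19, adjusted p 0.271) with all libraries. When both replicate 4 libraries were left out it was -0.44 (-0.59 to -0.29, adjusted p 0.000155), 0.738 of the control level. With TNFα it was -0.45 (-0.59 to -0.32, adjusted p 1.39e-05), 0.730 of the control level, and without the control replicate 4 library -0.52 (adjusted p 1.21e-07). Across the alternatives tried the adjusted p with TNFα ran from 3.52e-11 to 0.763, the largest in 1 fit to all 16 libraries. The interaction was 1.83 (-0.28 to 3.95, adjusted p 0.657), and without both replicate 4 libraries it was -0.09 (-0.25 to 0.08, adjusted p 0.878).

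*Vcam1* (ENSMUSG00000027962, chromosome 3, 115903598 to 115923355, minus strand) encodes the ligand of integrins that contain ITGA4. With vehicle, control replicates 1 to 4 held 31.2, 27.2, 32.2 and 148 CPM, and mutant replicates 35.5, 39.8, 39.6 and 43.0 CPM. With TNFα, control replicates held 733, 753, 769 and 631 CPM, and mutant replicates 900, 914, 905 and 842 CPM. The TNFα and vehicle libraries did not overlap in either genotype, and replicate 4 of both control groups was again the outermost library on the side of the other treatment. *Vcam1* rose 12.1-fold in control cells, with a log2 fold change of 3.59 (95% CI 1.93 to 5.26, adjusted p 0.00555). Without both replicate 4 libraries (n = 3 and 3) the rise was 24.9-fold, or 4.64 (4.53 to 4.75, adjusted p 9.71e-31). In mutant cells it was 22.5-fold, or 4.49 (4.35 to 4.64, adjusted p 1.39e-26).

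Unlike *Icam1*, *Vcam1* was higher in mutant than in control cells under TNFα, where all 4 mutant libraries exceeded all 4 control libraries. The means were 890 ± 32.5 and 721 ± 62.1 CPM, and the log2 fold change was 0.32 (95% CI 0.19 to 0.45, adjusted p 0.00106). It was 0.24 (adjusted p 0.00298) without control replicate 4, and the adjusted p ran from 2.14e-05 to 0.757 over the alternatives, again largest in the fit to all 16 libraries. With vehicle the direction depended on control replicate 4. It was -0.59 (-2.11 to 0.93, adjusted p 0.684) with all libraries, and 0.39 (0.23 to 0.55, adjusted p 0.00104) without the replicate 4 libraries, between 30.2 ± 2.68 (n = 3) and 39.5 ± 3.05 CPM. The interaction was 0.90 (-0.44 to 2.24, adjusted p 0.746), and -0.14 (-0.32 to 0.03, adjusted p 0.728) without these libraries.

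*Alcam* (ENSMUSG00000022636, chromosome 16, 52069359 to 52274437, minus strand), the ligand of CD6, was called between genotypes and not with TNFα. Control vehicle replicates held 50.1, 51.0, 50.8 and 52.1 CPM, and mutant vehicle replicates 29.1, 38.4, 37.6 and 38.3 CPM. Control TNFα replicates held 47.3, 46.0, 46.7 and 49.4 CPM, and mutant TNFα replicates 33.9, 35.3, 35.1 and 34.8 CPM. Every mutant library was below every control library, whatever the treatment, and mutant vehicle replicate 1 was the lowest of all. With vehicle the log2 fold change of mutant against control was -0.49 (95% CI -0.65 to -0.34, adjusted p 4.32e-05), 0.710 of the control level, and it was -0.42 (adjusted p 0.00054) at its smallest when 1 library was left out. With TNFα it was -0.44 (-0.58 to -0.30, adjusted p 3.90e-05), 0.739 of the control level. All control TNFα libraries (46.0 to 49.4 CPM) lay below all control vehicle libraries (50.1 to 52.1 CPM), a difference that was not called. TNFα differed from vehicle by -0.10 (-0.21 to 0.01, adjusted p 0.152) in control cells and, with overlap of the groups, by -0.05 (-0.22 to 0.12, adjusted p 0.668) in mutant cells. The interaction was 0.05 (adjusted p 0.929).

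**Figure D2:**
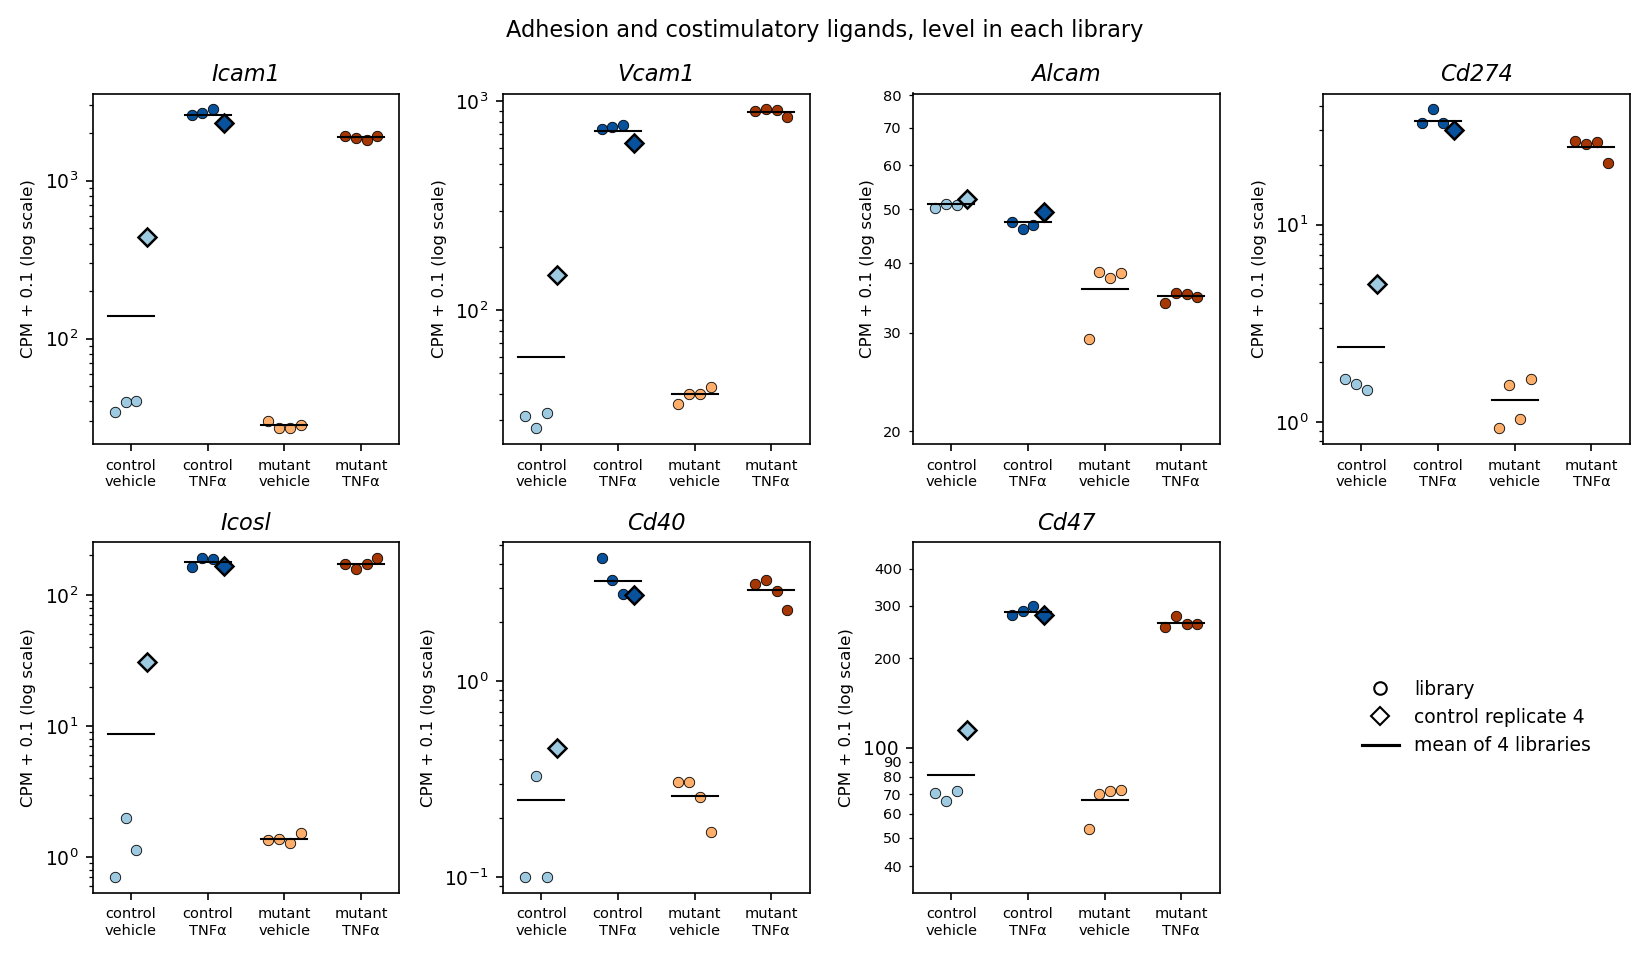
CPM (log axis) of the members in the 16 libraries, with 1 point per library and bars at group means. *Icam1* stands at 34.4 to 40.4 CPM in control vehicle replicates 1 to 3, at 439 CPM in replicate 4 and at 1812 to 2828 CPM with TNFα.

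Of the checkpoint ligands, *Cd274* (ENSMUSG00000016496, chromosome 19, 29344529 to 29365495, plus strand), which encodes PD-L1, was low with vehicle. The control vehicle replicates held 1.55, 1.45, 1.35 and 4.88 CPM, and the mutant vehicle replicates 0.827, 1.44, 0.934 and 1.54 CPM. With TNFα the control replicates held 32.7, 38.2, 32.6 and 30.0 CPM, and the mutant replicates 26.4, 25.4, 26.1 and 20.4 CPM. The TNFα libraries all lay above the vehicle libraries, the mutant TNFα libraries all lay below the control TNFα libraries, and the vehicle groups overlapped. The log2 fold change with TNFα was 3.83 (95% CI 2.96 to 4.70, adjusted p 0.000156) in control cells, a 14.2-fold rise, and 4.57 (4.29 to 4.86, adjusted p 5.56e-21) without both replicate 4 libraries. In mutant cells it was 4.30 (4.00 to 4.61, adjusted p 4.01e-19), a 19.7-fold rise.

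Between genotypes *Cd274* differed by -0.40 with TNFα (95% CI -0.58 to -0.22, adjusted p 0.00216), from 33.4 ± 3.47 CPM in control to 24.6 ± 2.81 CPM in mutant cells. Without the control replicate 4 library the value was -0.46 (adjusted p 0.000397), and over the alternatives the adjusted p ran from 9.74e-05 to 0.269, largest in the fit to all 16 libraries. With vehicle it was -0.92 (-1.94 to 0.11, adjusted p 0.294). This vehicle difference was called without a filter on low counts (-0.92, adjusted p 0.00571) and with a replicate block (-0.88, adjusted p 0.0401), and without both replicate 4 libraries it was -0.23 (-0.82 to 0.36, adjusted p 0.736). The interaction was 0.47 (-0.50 to 1.45, adjusted p 0.837), and -0.27 (-0.78 to 0.25, adjusted p 0.876) without the replicate 4 libraries. *Plgrkt* overlaps *Cd274* on the opposite strand and reached at most 949 counts in a library, where the highest count of *Cd274* was 697. The strand setting of the counting is not stated, and a share of reads from *Plgrkt* in the *Cd274* count was not tested.

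*Pdcd1lg2* (ENSMUSG00000016498, chromosome 19, 29388319 to 29448882, plus strand), the other ligand of PDCD1, had 0 counts in all 16 libraries. It lay below the floor of 3 counts in every library and has no fold change.

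*Icosl* (ENSMUSG00000000732, chromosome 10, 77905136 to 77919747, plus strand), the ligand of ICOS, had the largest fitted TNFα ratio of the 8 genes once control replicate 4 was set aside. Control vehicle replicates held 0.608, 1.903, 1.03 and 30.6 CPM, and mutant vehicle replicates 1.24, 1.28, 1.19 and 1.43 CPM. Control TNFα replicates held 163, 191, 188 and 166 CPM, and mutant TNFα replicates 172, 158, 172 and 191 CPM. Vehicle and TNFα libraries did not overlap, while the genotypes overlapped with either treatment. *Icosl* rose 20.2-fold in control cells, with a log2 fold change of 4.34 (95% CI 1.78 to 6.89, adjusted p 0.0158). With both replicate 4 libraries left out (n = 3 and 3) the rise was 162-fold, or 7.34 (6.89 to 7.79, adjusted p 2.65e-08). With a replicate block, which treats equal replicate numbers as paired, the log2 fold change in control cells was 5.37 with an adjusted p of 0.0566, and the alternatives ran from 2.14e-23 to 0.0566. In mutant cells the rise was 130-fold, or 7.03 (6.82 to 7.24, adjusted p 2.89e-27).

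*Icosl* was not called between genotypes. The log2 fold change of mutant against control was -2.72 (95% CI -6.11 to 0.67, adjusted p 0.341) with vehicle, 0.20 (-0.48 to 0.87, adjusted p 0.810) with vehicle without both replicate 4 libraries, and -0.03 (-0.17 to 0.11, adjusted p 0.871) with TNFα. The interaction was 2.69 (0.08 to 5.29, adjusted p 0.553), and its sign reversed to -0.31 (-0.88 to 0.25, adjusted p 0.863) without the replicate 4 libraries.

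*Cd40* (ENSMUSG00000017652, chromosome 2, 164897544 to 164914868, plus strand), the receptor of CD40LG, was the least abundant gene detected. The control vehicle replicates held 0, 3, 0 and 6 counts and the mutant vehicle replicates 3, 4, 3 and 3 counts. With TNFα the control replicates held 53, 58, 46 and 51 counts, and the mutant replicates 46, 55, 48 and 8 counts. The mean with TNFα was 3.18 ± 0.708 CPM in control and 2.82 ± 0.441 CPM in mutant cells, above all vehicle libraries, and the 8 counts in mutant replicate 4 came from the library with the lowest total. The log2 fold change with TNFα was 4.40 (95% CI 3.40 to 5.41, adjusted p 4.57e-07) in control and 4.34 (3.59 to 5.09, adjusted p 1.01e-10) in mutant cells. Without both replicate 4 libraries the control ratio rested on 3 against 157 pooled counts and was 50.9 (exact counting interval 17.1 to 250). Mutant and control cells overlapped with either treatment, at 0.03 (-1.95 to 2.02, adjusted p 0.992) with vehicle and -0.09 (-0.51 to 0.34, adjusted p 0.863) with TNFα. At these counts a genotype difference in vehicle within that interval was not detectable. Without both replicate 4 libraries the vehicle comparison rested on 3 control and 13 mutant counts, a ratio of 2.09 (exact counting interval 0.576 to 11.5). The interaction was -0.06 (-1.74 to 1.61, adjusted p 1.000), and -1.19 (-3.06 to 0.67, adjusted p 0.819) without those libraries.

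*Cd47* (ENSMUSG00000055447, chromosome 16, 49620896 to 49735373, plus strand), the ligand of SIRPA, was present in every library and rose least of the 6 genes. Control vehicle replicates held 70.4, 66.5, 71.3 and 115 CPM, and mutant vehicle replicates 53.2, 70.1, 71.8 and 72.2 CPM. Control TNFα replicates held 280, 289, 301 and 279 CPM, and mutant TNFα replicates 254, 278, 261 and 260 CPM. No TNFα library overlapped a vehicle library, all mutant TNFα libraries lay below all control TNFα libraries, and mutant vehicle replicate 1 was the lowest library. *Cd47* rose 3.56-fold in control cells, with a log2 fold change of 1.83 (95% CI 1.34 to 2.32, adjusted p 0.000383), and 4.19-fold without both replicate 4 libraries, or 2.07 (1.97 to 2.16, adjusted p 2.83e-24). In mutant cells the rise was 3.93-fold, or 1.97 (1.81 to 2.14, adjusted p 9.99e-16). Genotype differences were not called, at -0.27 (-0.78 to 0.25, adjusted p 0.571) with vehicle, -0.05 (-0.25 to 0.15, adjusted p 0.837) with vehicle without the replicate 4 libraries, and -0.11 (-0.23 to 0.01, adjusted p 0.270) with TNFα. The interaction was 0.15 (-0.32 to 0.61, adjusted p 0.907), and -0.09 (-0.30 to 0.11, adjusted p 0.894) without those libraries.

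**Figure D3:**
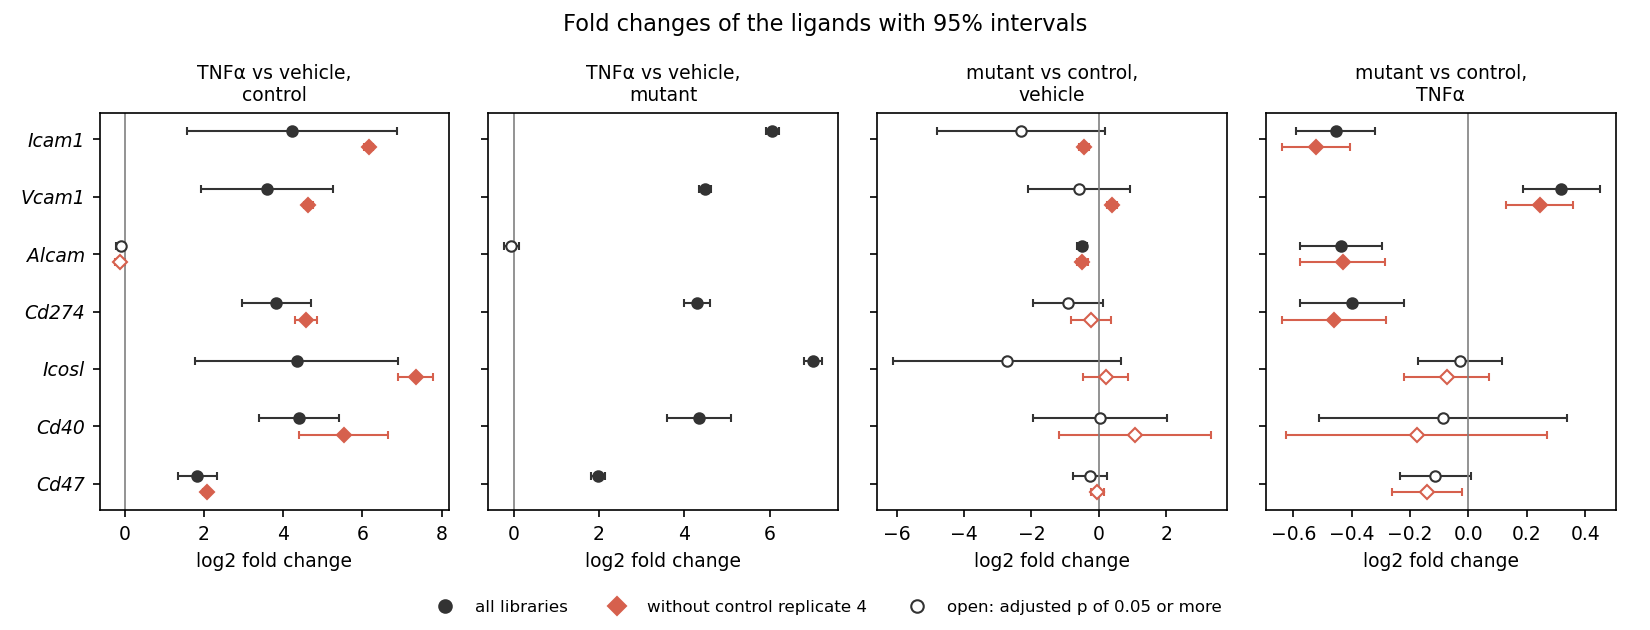
Log2 fold change with 95% confidence interval of each member tested in the 4 comparisons, from all libraries and without replicate 4 of both control groups. For *Icosl* in control cells the value moves from 4.34 to 7.34 and the interval narrows from 1.78 to 6.89 to 6.89 to 7.79.

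Levels of different genes were compared as CPM per kilobase of the canonical transcript. In control TNFα libraries *Icam1* was highest at 828 ± 69.4, then *Vcam1* at 207 ± 17.9, *Cd47* at 176 ± 6.24 and *Icosl* at 63.0 ± 5.23. *Cd274* at 8.46 ± 0.879 and *Alcam* at 7.85 ± 0.239 lay within the spread of each other, and *Cd40* was lowest at 1.06 ± 0.237. Mutant TNFα libraries had the same order, with *Icam1* at 599 ± 18.5, *Vcam1* at 256 ± 9.34, *Cd47* at 162 ± 6.30, *Icosl* at 61.5 ± 4.79, *Cd274* at 6.23 ± 0.712, *Alcam* at 5.76 ± 0.105 and *Cd40* at 0.943 ± 0.148. In mutant vehicle libraries *Cd47* was highest at 41.1 ± 5.59, followed by *Vcam1* at 11.4 ± 0.876, *Icam1* at 8.93 ± 0.417 and *Alcam* at 5.94 ± 0.747. *Icosl* at 0.457 ± 0.0358, *Cd274* at 0.300 ± 0.0904 and *Cd40* at 0.0532 ± 0.0216 followed at a distance. Control vehicle replicates 1 to 3 had *Cd47* at 42.6, *Icam1* at 12.1, *Vcam1* at 8.68, *Alcam* at 8.39, *Icosl* at 0.419, *Cd274* at 0.367 and *Cd40* at 0.0255. Per kilobase of all exons, an alternative chosen after the data had been seen, *Icosl* at 38.4 stood above *Cd47* at 32.7 in control TNFα libraries, and at 37.5 above 30.0 in mutant TNFα libraries. With that length the mutant vehicle order was *Cd47* at 7.62, *Icam1* at 5.65, *Alcam* at 5.04 and *Vcam1* at 4.39. In control vehicle replicates 1 to 3 *Cd47* at 7.91, *Icam1* at 7.66 and *Alcam* at 7.11 were close, and *Vcam1* stood at 3.36.

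The genes closest to each member in profile across the 16 libraries were found among 13430 genes by the root mean square difference in log2(CPM + 1), after each gene's mean had been subtracted. For *Icam1* they were *Ifit3* (0.17), *Ifit3b* (0.26) and *Rsad2* (0.27), and for *Vcam1* *Casp4* (0.16), *Cd74* (0.16) and *Gm12250* (0.17). For *Icosl* they were *Ccl2* (0.29), *Icam1* (0.30) and *Ifit3* (0.30). *Cd274* was nearest to *Tmem140* (0.19), *Ripk2* (0.21) and *Stx11* (0.22). *Cd47* was nearest to *Zc3hav1* (0.11), *Erap1* (0.11) and *Eif2ak2* (0.13), and *Alcam* to *Enpp1* (0.07), *Tsc22d1* (0.07) and *Msi2* (0.09). No neighbors are named for *Cd40*, whose vehicle levels of 0 to 0.357 CPM lie under the added 1, so that the scale compresses its range; for *Cd274* and *Icosl*, near 1 CPM with vehicle, it does so in part. Among the members themselves *Icam1* and *Icosl* differed by 0.30, whereas *Icam1* and *Vcam1* differed by 0.89 and *Alcam* and *Icosl* by 3.08.

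Of the other adhesion ligands 17 were in the files. Of these 15 could be tested in control cells. There 11 were called higher and 1 lower with TNFα, beside 23.3% and 20.9% of all genes, at a median log2 fold change of 0.68. Without both replicate 4 libraries 10 were called higher and 1 lower, beside 24.6% and 22.8% of all genes, at a median of 0.74. In mutant cells 11 were called higher and 1 lower of 16, beside 22.6% and 21.9% of all genes, at a median of 0.85. The medians were the same with genes of few counts placed at their pooled ratio or bound. *Madcam1*, a ligand of the integrin that contains ITGB7, held 0, 0, 0 and 0.536 CPM in control vehicle replicates and 4.73, 5.38, 5.01 and 5.02 CPM with TNFα. Its log2 fold change was 5.09 (adjusted p 7.70e-06), with all vehicle counts in replicate 4, and without both replicate 4 libraries it rested on 0 against 244 pooled counts, for which the exact counting interval has a lower limit of 63.9-fold. In mutant cells it rested on 2 against 322 pooled counts, a ratio of 294 (exact counting interval 80.8 to 2440). *Icam5* rose by 2.78 (adjusted p 4.46e-06) in control and 3.07 (adjusted p 2.62e-18) in mutant cells, and *Cd44*, a receptor of hyaluronan, by 0.53 (adjusted p 2.11e-07) and 0.76 (adjusted p 5.72e-11). *Mcam* was the only one called lower, at -0.84 in control and -1.13 (adjusted p 5.74e-09) in mutant cells.

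Of the other costimulatory and checkpoint ligands, 8 were called higher and 2 lower of 18 tested with TNFα in control cells. The median log2 fold change was 0.44, and 23.3% of all genes were called higher and 20.9% lower. In mutant cells 8 were called higher and 3 lower of 19, at a median of 0.51, beside 22.6% of all genes higher and 21.9% lower. Neither median changed with genes of few counts at their pooled ratio or bound. The ligand *Cd70* held 0, 0, 0 and 0.595 CPM in control vehicle replicates and 3.86, 4.06, 5.19 and 3.66 CPM with TNFα, and it rose by 4.68 (adjusted p 0.000132). Without both replicate 4 libraries *Cd70* had 0 against 212 pooled counts, with a lower limit of 55.4-fold. In mutant cells *Cd70* had 1 against 127 pooled counts, a ratio of 232 (exact counting interval 40.9 to 9240). *Tnfsf15* held 0.442, 0.152, 0.836 and 2.80 CPM in control vehicle replicates and rose by 3.48 (adjusted p 0.00154) in control cells, by 4.63 (adjusted p 4.21e-15) in control cells without both replicate 4 libraries, and by 5.45 (adjusted p 4.64e-18) in mutant cells. *Tnfrsf14*, a ligand of BTLA, held 1.11, 0.837, 1.35 and 5.12 CPM in control vehicle replicates. It rose by 3.24 (adjusted p 0.00135) in control cells, by 4.22 (adjusted p 1.78e-18) without both replicate 4 libraries, and by 4.36 (adjusted p 1.11e-18) in mutant cells. *Cd24a* fell by 1.42 (adjusted p 0.000300) in control and by 1.67 (adjusted p 6.07e-11) in mutant cells. *Vtcn1* and *Tnfsf14* had at most 3 counts in every library.

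Between genotypes these lists held fewer calls. Among other adhesion ligands 2 were called higher and 3 lower of 16 in mutant cells with vehicle, and 0 higher and 1 lower of 16 with TNFα, where 6.19% and 4.35% of all genes were called higher and lower with vehicle and 5.63% and 4.31% with TNFα. Without the control replicate 4 libraries the counts were 2 higher and 3 lower of 15 with vehicle and 0 higher and 3 lower of 16 with TNFα. Among the other costimulatory and checkpoint ligands the counts were 2 higher and 2 lower of 17 with vehicle, and 0 higher and 4 lower of 18 with TNFα. Leaving out those libraries gave 3 higher and 1 lower of 16, and 1 higher and 4 lower of 17. In the fits without those libraries 5.78% of all genes were called higher and 4.59% lower with vehicle. With TNFα these shares were 5.86% and 5.18%. *Pecam1* was higher with vehicle, at 1.13 (adjusted p 0.0129), as was *Cd48*, at 1.61 (adjusted p 0.0152). *Pecam1* is itself 1 of the 9 endothelial markers, and *Cd48*, a gene of blood cells, was higher beside the higher macrophage sum; a part of other cells in these values was not tested. In the interaction 0 were called in either list.

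Several receptors of the members were not detected. *Cd40lg* had 0 counts in all 16 libraries, and *Cd6* and *Pdcd1* had at most 3 counts in each. The list of receptors also holds the thrombospondin genes *Thbs1* and *Thbs2*, which are not receptors. Of 12 genes tested, 1 was called higher and 3 lower with TNFα in control cells, and 2 higher and 4 lower in mutant cells. Among all genes 23.3% were called higher and 20.9% lower in control cells, and 22.6% and 21.9% in mutant cells. *Thbs1*, which encodes the CD47 ligand thrombospondin, held 23757, 24253, 22688 and 22060 CPM in control vehicle replicates and 6801, 5778, 5154 and 10370 CPM in control TNFα replicates. Its log2 fold change was -1.72 (adjusted p 0.00109), or -1.99 without both replicate 4 libraries, and in mutant cells TNFα left it at 0.250 of the vehicle level (adjusted p 3.29e-21). *Itgb2*, a subunit of the ICAM1-binding integrins of leukocytes, was higher in mutant cells, at 0.91 (adjusted p 0.000992) with vehicle and 0.99 with TNFα, beside the higher macrophage sum. *Itgal* was higher as well, at 1.42 (adjusted p 0.00380) with TNFα. Mutant TNFα replicates held 2.85, 2.63, 2.92 and 0.276 CPM of *Itgal*. Replicate 4, the library with the lowest total, lay below all control TNFα libraries (0.641 to 1.15 CPM). *Itgb7* was lower, at -1.35 (adjusted p 2.20e-05) with vehicle and -1.07 (adjusted p 0.000441) with TNFα.

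The 8 genes listed for CD40 and TNF receptor signaling include the receptors *Tnfrsf1a* and *Tnfrsf1b*. With TNFα 4 of the 8 were called higher and 1 lower in control cells, and 5 higher and 1 lower in mutant cells. Beside these, 23.3% of all genes were called higher and 20.9% lower in control cells, and 22.6% and 21.9% in mutant cells. *Traf1* held 1.33, 0.914, 0.836 and 8.69 CPM in control vehicle replicates and 47.0, 60.7, 55.9 and 38.5 CPM with TNFα. It rose by 4.05 (adjusted p 0.00203), by 5.71 without both replicate 4 libraries, and by 5.25 (adjusted p 2.81e-21) in mutant cells. *Traf2* rose by 1.16 and 1.13, and the receptor *Tnfrsf1a* fell by 0.25 and 0.29. None of the 8 was called between genotypes with all libraries, and *Traf1* alone was called lower with TNFα without control replicate 4. As a check of genotype, the Notch target *Heyl* was higher in mutant cells, at 3.04 (adjusted p 6.25e-07) with vehicle and 2.46 (adjusted p 0.000144) with TNFα, and *Hes1* and *Hey1* were higher with vehicle, at 0.61 and 0.59. With TNFα *Hes1* was called only without control replicate 4, at 1.04 (adjusted p 0.000970). *Hey1* had means of 2.59 CPM in control and 2.58 CPM in mutant TNFα libraries. *Hey2*, at few counts, had a pooled ratio of 1.11 with TNFα (exact counting interval 0.343 to 3.51). Of the 5 genes kept for this check, 3 were called higher with vehicle and 2 with TNFα, and 0 lower.

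The promoter table used, built on the GRCm38.p6 RefSeq annotation, held sequence before the transcription start for 6 of the members, and no entry for *Vcam1* or *Cd40*. Motifs were searched on both strands: GGNNNTTCC for κB sites, GAAANNGAA for IRF sites, TTCNNNGAA for GAS sites, GTGGGAA for RBPJ sites and TATAAA. In the first 250 bases of the windows of all 32851 promoters these occurred in 15.7%, 7.13%, 7.02%, 5.42% and 12.4%. *Icam1* had matches to the κB and GAS motifs, *Cd274* had 1 match to the IRF motif, and *Alcam*, *Icosl*, *Pdcd1lg2* and *Cd47* had 0 in the printed window. A match describes the sequence and does not show that a factor binds there. Sequences are given for the adhesion ligand with the largest level under TNFα, for the checkpoint ligand that rose, and for the ligand not called with TNFα; all 3 run 5′ to 3′ on the strand of the gene, and capitals mark the matched motifs.

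The 250 bases before each start are those of chr9:21015690-21015939, plus strand, for *Icam1*, chr19:29367188-29367437, plus strand, for *Cd274* and chr16:52453082-52453331, minus strand, for *Alcam*, all of GRCm38.p6. Positions count from 1 at the left end. The κB match of *Icam1* at 98 to 106 and its GAS match at 209 to 217 fit on both strands, and its κB match at 167 to 175 reads on the opposite strand only. The IRF match of *Cd274* lies at 175 to 183 and reads on the opposite strand.
Icam1: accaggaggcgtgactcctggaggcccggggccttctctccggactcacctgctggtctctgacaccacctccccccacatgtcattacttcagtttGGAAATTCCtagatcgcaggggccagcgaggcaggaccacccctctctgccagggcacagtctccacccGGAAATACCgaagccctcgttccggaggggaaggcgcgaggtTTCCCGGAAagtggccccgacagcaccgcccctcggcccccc
Cd274: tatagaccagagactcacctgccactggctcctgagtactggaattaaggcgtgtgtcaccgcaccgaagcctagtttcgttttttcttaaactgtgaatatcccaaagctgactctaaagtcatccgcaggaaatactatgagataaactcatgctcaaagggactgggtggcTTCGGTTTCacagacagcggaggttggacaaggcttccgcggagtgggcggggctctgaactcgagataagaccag
Alcam: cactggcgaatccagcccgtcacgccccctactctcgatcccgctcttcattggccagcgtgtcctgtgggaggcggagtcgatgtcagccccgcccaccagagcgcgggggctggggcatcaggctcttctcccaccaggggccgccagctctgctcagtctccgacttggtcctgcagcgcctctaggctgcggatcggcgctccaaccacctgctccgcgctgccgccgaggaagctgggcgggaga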

How the data were processed

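The values are raw read counts per gene that the authors deposited, 1 file per library. The authors trimmed paired 75 bp reads with Trimmomatic 0.39, aligned them with HISAT2 2.2.1 to GRCm39 with Ensembl 105 genes and counted them with htseq-count 0.11.0; the processing notes also name GRCm38 and HISAT2 2.1.0. The strand setting is not stated. Identifiers received names from GENCODE M39, and 665 of 55414, with 0.0182% of counts, received none. The members and the lists of related genes and markers were chosen with earlier results of these data known. Of each list the 2 genes with the highest level per kilobase were to be named and, for ligands and receptors, up to 6 called genes with an absolute log2 fold change of at least 1 per comparison; any other listed gene was chosen after its values were seen, and a few that the rule takes are left out for length. *Cd99*, listed with the other adhesion ligands, was not in the annotation.

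Each comparison of 8 libraries, and the interaction over 16, was fitted with edgeR 4.0.16 (limma 3.58.1, R 4.3.3), TMM scaling and a robust quasi-likelihood test, on genes with a summed count of at least 10. Adjusted p is Benjamini-Hochberg over all genes tested. The biological coefficient of variation was 9.98% and 7.65% for TNFα in control and mutant cells, 9.69% and 7.79% for genotype with vehicle and TNFα, and 8.83% for the interaction. Alternatives used DESeq2 1.42.0 on the same filter, RLE scaling, other filters and thresholds, a replicate block, each library left out, fewer libraries and 1 fit to all libraries. Added after the data had been seen were 1 fit to all libraries except both control libraries of replicate 4, and levels per kilobase of all exons. Groups with at most 3 counts in each library are given as pooled ratios with exact intervals, or, against 0 counts, as the lower limit of that interval; medians of lists use a bound against 3 counts there. These cover counting error only, since reads carry no molecular identifiers. The scripts were first run on simulated counts. Figures were drawn with matplotlib 3.10.9, and tables were handled in pandas 2.3.3 and numpy 2.4.6 under Python 3.11.15.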

Additional observations from a re-analysis of the deposited data

Results flagged for a closer look

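Among the members, 28 groups of 4 libraries were tested for 1 library apart from the other 3 with Dixon's ratio, and 8 met the rule; chance alone flags about 1 in 20 groups. Of these, 5 are control vehicle replicate 4. It held 438.77 CPM of *Icam1* (others 34.4 to 40.4), 147.53 CPM of *Vcam1* (others 27.2 to 32.2), 4.8798 CPM of *Cd274* (others 1.35 to 1.55), 30.648 CPM of *Icosl* (others 0.608 to 1.903) and 114.91 CPM of *Cd47* (others 66.5 to 71.3). These values come from the same library and are not independent. It also lay 15.8% of the way toward TNFα over 463 genes, and control TNFα replicate 4 lay at 80.4%. What sets these libraries apart was not tested.

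Mutant vehicle replicate 1 held 29.137 CPM of *Alcam* (others 37.6 to 38.4) and 53.247 CPM of *Cd47* (others 70.1 to 72.2). Mutant TNFα replicate 4, the library with the lowest total of 3439726 counts, held 20.414 CPM of *Cd274* (others 25.4 to 26.4).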

How the results depend on the processing

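For the fold changes of single members, 608 values under other settings kept direction and call, 31 reversed in direction, 5 became stronger and 9 weaker. No member call was lost when any 1 library was left out.

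Under an added cutoff of 1 on the absolute log2 fold change, genes called fell to 2279 in control and 2720 in mutant cells for TNFα, 244 and 272 for genotype with vehicle and with TNFα and 10 for the interaction, and members called to 0 for genotype with either treatment. DESeq2 called 3 members for TNFα in control cells, with no adjusted p for 3 others, and 206 genes for the interaction, where the fit without a filter called 266. The interaction called 51 to 156 genes with 1 library left out.

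For genotype with vehicle, members called were 2 without a filter (*Cd274* -0.92, adjusted p 0.00571), 2 with a replicate block (*Cd274* -0.88, adjusted p 0.0401), 3 without both control libraries of replicate 4, 3 in the added fit to all libraries except those, and 1 to 3 with 1 library left out. For genotype with TNFα the fit to all 16 libraries called 1. With a replicate block *Icosl* for TNFα in control cells had an adjusted p of 0.0566 and members called were 5.

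Directions that reversed for genotype with vehicle were *Cd40* at -0.0395 in the fit to all 16 libraries, *Vcam1* at 0.39 and *Icosl* at 0.20 without both replicate 4 libraries, and *Vcam1* at 0.39 and *Icosl* at 0.24 in the added fit. With 1 library left out the lowest and highest values were -0.42 and 1.06 for *Cd40*, -0.82 and 0.39 for *Vcam1* and -3.12 and 0.20 for *Icosl*. For genotype with TNFα they were -0.18 and 0.0530 for *Cd40* and -0.0822 and 0.00710 for *Icosl*. The interaction without both replicate 4 libraries reversed to -0.0851 for *Icam1*, -0.14 for *Vcam1*, -0.27 for *Cd274*, -0.31 for *Icosl* and -0.0910 for *Cd47*, and *Cd40*, at most 3 counts in each control vehicle library, stood at -1.19. With 1 library left out it ran from -0.04 to 2.16 for *Icam1*, -0.10 to 1.13 for *Vcam1*, -0.0260 to 0.0899 for *Alcam*, -0.24 to 0.70 for *Cd274*, -0.29 to 3.10 for *Icosl*, -1.13 to 0.39 for *Cd40* and -0.09 to 0.23 for *Cd47*.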
